A study of Danio rerio with 6 samples.

Results

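The cells compared here are single cells of zebrafish BRAF-driven melanomas, split by whether transcripts of the human BRAF transgene were counted in them. Fish of the casper strain carried BRAFV600E under the mitfa promoter, which is active in the melanocyte lineage, on a mitfa-/- background. Embryos had been injected with mitfa-MITF and mitfa-GFP plasmids, so that only cells that took up the plasmids could regain melanocytes and carry GFP. Adult tumors with the tissue around them were dissociated, equal numbers of GFP-positive and GFP-negative cells were sorted, and their transcripts were counted by droplet sequencing from the 3′ end in samples E and F. Both groups of cells therefore come from the same fish and share the inherited alleles. The injected plasmids need not be in every cell, so the groups can differ in them. The labels give each sample as a separate cell suspension, while the study's methods speak of cells of 2 fish split in a single reaction, so p-values measure the spread between these samples only. The 2 samples share 0 cell barcodes.

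A cell was kept with at least 200 genes, at most 20% mitochondrial counts and at least 5000 UMIs, where a UMI is 1 captured transcript. Cells with at least 20% of their UMIs in the hemoglobin genes hbaa1 and ba1 were left out. Of 2996 barcodes, 1973 were kept, 1281 in sample E and 692 in sample F. Cells with at least 3 BRAF UMIs (BRAF-positive cells) numbered 1362, with 990 in sample E (77.3%) and 372 in sample F (53.8%). Cells with 0 BRAF UMIs (BRAF-0 cells) numbered 502, with 223 in sample E (17.4%) and 279 in sample F (40.3%). The remaining 109 cells had 1 or 2 BRAF UMIs and entered neither group. GFP-positive and GFP-negative cells had been sorted in equal numbers, so these shares are not the makeup of the tissue. Summing the UMIs by group and sample gave 4 sums of 23005301 and 8459521 UMIs in BRAF-positive cells, and 4197933 and 4433219 UMIs in BRAF-0 cells.

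BRAF is a kinase that relays RAS signals to MEK and ERK, and the V600E form is active without RAS. ERK activity is known to raise its own brakes, the DUSP phosphatases and Sprouty proteins, together with ETS factors of the PEA3 group. Mitfa is the master regulator of the melanocyte lineage, and melanocytes arise from the neural crest.

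The cells were chosen by their BRAF count, so its values describe the choice and were not tested. In BRAF-positive cells the transgene had a median of 21 UMIs per cell in sample E and 19 in sample F, and its level was 1134 and 1395 CPM, the unit that scales the UMIs of every sum to the same total. The highest count in a cell was 761, in a cell of sample F. Cells just inside the limit, with 3 BRAF UMIs, were 26 (sample E) and 13 (sample F) in number. Cells just outside it, with 2, numbered 30 and 21. Among hemoglobin-rich cells of sample E, which were left out and should not carry a melanocyte promoter's transcript, 16 of 218 (7.34%) had a BRAF UMI, at a median depth of 17345.5 UMIs, and 4 had at least 3. The hemoglobin share just inside its own limit reached 18.7% (sample E) and 12.6% (sample F), and just outside it 20.5% and 25.1%. Depth differed between the groups, with medians of 20081.5 and 15586.5 UMIs in BRAF-positive cells of samples E and F, and of 16679 and 12620 UMIs in BRAF-0 cells.

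EGFP, the reporter by which cells were sorted, was under the same mitfa promoter as the BRAF transgene and followed it. An EGFP UMI was found in 978 of 990 BRAF-positive cells of sample E (98.8%, with a 95% interval of 97.9% to 99.4% by the exact Clopper-Pearson method) and in 325 of 372 of sample F (87.4%, 83.6% to 90.6%). In BRAF-0 cells it was found in 12 of 223 cells of sample E (5.38%, 2.81% to 9.21%) and in 1 of 279 of sample F (0.358%, 0.00907% to 1.98%). The intervals cover counting error only. After each cell had been thinned to 5000 UMIs and regrouped, the shares were 94.6% and 83.4% in BRAF-positive cells, and 9.38% and 1.02% in BRAF-0 cells. The EGFP level was 679 and 584 CPM in BRAF-positive cells of samples E and F, against 4.05 and 0.226 CPM in BRAF-0 cells, and the groups did not overlap, as was the case, in this direction, for 25.6% of all genes tested below.

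**Figure D1:**
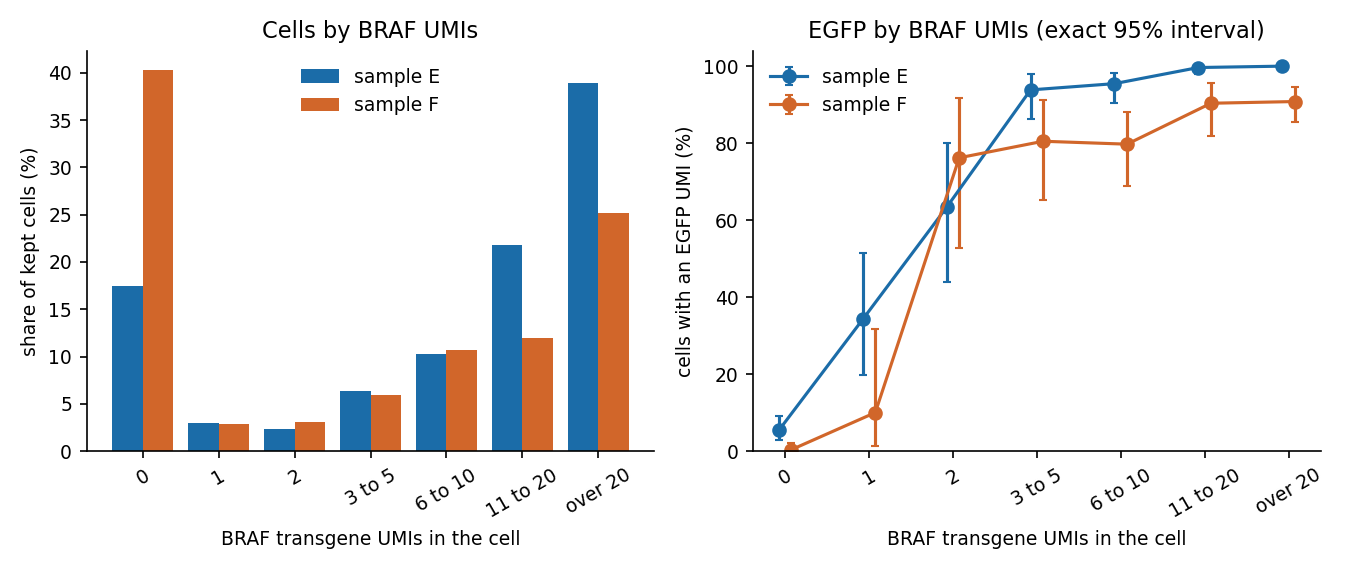
Left, the share of kept cells of each sample (percent) by BRAF transgene UMIs in the cell. Right, the share of these cells with an EGFP UMI (percent, points) with exact 95% intervals (bars). Cells with 1 BRAF UMI carried EGFP in 34.2% of sample E and 10.0% of sample F, and cells with 2 in 63.3% and 76.2%.

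Most BRAF-0 cells carried leukocyte transcripts. At least 5 UMIs of a list of pan-leukocyte genes were found in 184 of 223 BRAF-0 cells of sample E and 217 of 279 of sample F, against 224 of 990 and 66 of 372 BRAF-positive cells. The summed level of the list was 158 and 219 CPM in BRAF-positive cells, and 2958 and 3419 CPM in BRAF-0 cells. Liver genes, and in sample F germ cell genes, were also higher in BRAF-0 cells. The keratinocyte list summed to 9995 and 14780 CPM in BRAF-positive cells, against 5086 and 5981 CPM in BRAF-0 cells. That sum in BRAF-positive cells was mostly the gene icn. When these cells were split by BRAF share, as below, icn had 7327 and 8345 CPM in sample E, and 12577 and 8185 CPM in sample F. The median log2 fold change of the list was -1.19, with 5 genes called lower and 1 higher of 15 tested. In summed cells, fewer cells of a type and less RNA per cell cannot be told apart, so a difference between the groups is one between the cell populations.

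Of 12021 genes that entered the quasi-likelihood test of edgeR (threshold 0.05 after Benjamini-Hochberg adjustment), 305 were higher in BRAF-positive cells (2.54% of the genes tested) and 784 lower (6.52%). With the sample as a term in the model, which pairs the groups of the same sample, 822 were higher (6.84%) and 1367 lower (11.4%). All 305 and all 784 were among these. DESeq2 called 875 higher (7.28%) and 1379 lower (11.5%). A gene could enter the test through its counts in 1 group alone. One near 0 in the other group could then be called in 1 direction only. Fold changes were fitted after TMM scaling, and their median over all genes was 0.03 on the log2 scale. The median ratio of unscaled CPM was -0.27 (sample E) and -0.61 (sample F) on the log2 scale, so scaling raised every ratio by 0.24 and 0.59, and the levels below are unscaled.

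Pigment and neural crest factors were higher in BRAF-positive cells. Of 16 tested, 7 rose and 1 fell (12 and 1 with the sample in the model), with a median log2 fold change of 3.78. Over all genes, 2.54% rose and 6.52% fell (6.84% and 11.4% with the sample in the model). mitfa had 227 and 120 CPM in BRAF-positive cells of samples E and F, against 4.53 and 4.74 CPM in BRAF-0 cells. Every BRAF-positive sum lay above every BRAF-0 sum, and the fitted log2 fold change was 5.64 ± 0.62 (SE, n = 2 each; edgeR adjusted p = 0.0249). Counts from the mutant locus and from an injected plasmid cannot be told apart here. crestin, a neural crest marker of zebrafish that comes back in melanoma, had 216 and 867 CPM in BRAF-positive cells, against 9.77 and 9.25 CPM in BRAF-0 cells. In BRAF-positive cells crestin was higher in sample F than in sample E, while mitfa was higher in sample E. sox10, the crest factor upstream of mitfa, had 112 and 145 CPM in BRAF-positive cells, against 18.1 and 10.4 CPM in BRAF-0 cells (3.52 ± 0.59, SE; edgeR adjusted p = 0.0298). foxd3, an early crest factor, had 13.2 and 30.1 CPM in BRAF-positive cells and 1.91 and 1.80 CPM in BRAF-0 cells. The factor that fell was tfec, a relative of mitfa that mammals use in macrophages, with 7.04 and 16.4 CPM in BRAF-positive cells and 95.3 and 127 CPM in BRAF-0 cells.

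Genes of the melanosome, the organelle that makes and stores melanin, had the highest median of the 4 pigment lists. Of 26 tested, 12 rose and 1 fell (17 and 2 with the sample in the model), with a median log2 fold change of 3.82. The shares over all genes were 2.54% and 6.52% (6.84% and 11.4% with the sample in the model). A fold change above 0 was seen for 23, beside 51.2% of all genes tested. tyrp1a, an enzyme of melanin synthesis, had 53.6 and 213 CPM in BRAF-positive cells, against 0.715 and 0.451 CPM in BRAF-0 cells, which rest on 3 and 2 UMIs. gpr143, a receptor of the melanosome membrane, had 227 and 393 CPM in BRAF-positive cells and 6.91 and 4.06 CPM in BRAF-0 cells (6.17 ± 0.70, SE; edgeR adjusted p = 0.0249). Both genes were far apart between the groups in either sample. bace2, a protease that cuts the melanosome protein Pmel, had 89.1 and 261 CPM in BRAF-positive cells, against 5.00 and 3.83 CPM in BRAF-0 cells. The channel gene trpm1b had 151 and 312 CPM in BRAF-positive cells, and 13.3 and 21.4 CPM in BRAF-0 cells. The gene that fell, slc7a11, is a cystine transporter that many cells use, and it had 10.17 and 39.8 CPM in BRAF-positive cells, against 263 and 533 CPM in BRAF-0 cells. Its direction turned against the BRAF-0 cells with under 5 pan-leukocyte UMIs, where its log2 fold change was 3.29 (edgeR adjusted p = 0.409).

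Genes of the other pigment cell types of zebrafish rose as well. The counts below stand beside 2.54% called higher and 6.52% lower over all genes (6.84% and 11.4% with the sample in the model). Of 17 genes of iridophores, the reflective cells that hold purine crystals, 3 rose and 0 fell (4 and 0 with the sample in the model), and all 3 serve purine synthesis or salvage. They were pnp4a, with 278 and 451 CPM in BRAF-positive cells and 35.5 and 22.8 CPM in BRAF-0 cells, paics and ppat. Of 13 genes of xanthophores, the yellow cells, 4 rose and 1 fell (6 and 2 with the sample in the model). slc2a15b, a transporter needed by xanthophores, had 65.0 and 127 CPM in BRAF-positive cells, against 1.67 and 0.451 CPM in BRAF-0 cells. qdpra and pcbd1, which recycle the cofactor from which pteridine pigments also stem, rose with it, as did slc2a11b. The gene that fell, csf1rb, is a relative of the receptor that xanthophores and macrophages share, and had 0.261 and 0.118 CPM in BRAF-positive cells and 11.2 and 13.99 CPM in BRAF-0 cells. The median log2 fold change was 0.82 for iridophore genes and 1.23 for xanthophore genes.

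**Figure D2:**
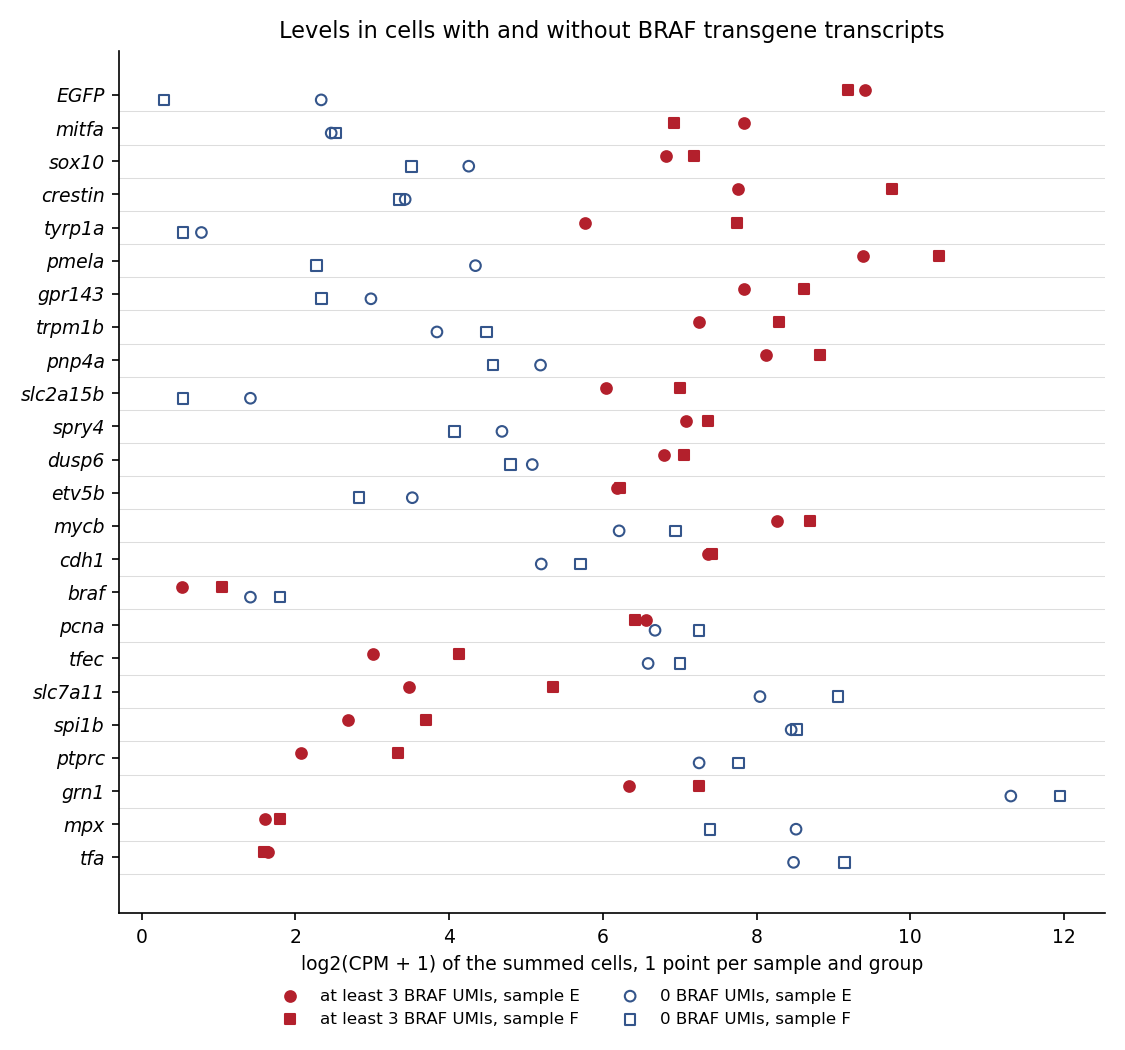
Level of 24 genes as log2(CPM + 1), with filled symbols for BRAF-positive cells and open symbols for BRAF-0 cells, circles for sample E and squares for sample F. Pigment genes and the ERK feedback genes spry4, dusp6 and etv5b lie to the right in BRAF-positive cells, and leukocyte genes and the liver gene tfa in BRAF-0 cells.

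The ERK feedback list rose without an exception among its calls. Of 21 genes tested, 7 rose and 0 fell, and 16 rose and 0 fell with the sample in the model, at a median log2 fold change of 2.33. The share called higher over all genes was 2.54%, and 6.84% with the sample in the model. etv5b, an ETS factor of the PEA3 group, had 71.5 and 73.8 CPM in BRAF-positive cells, against 10.5 and 6.09 CPM in BRAF-0 cells (3.484 ± 0.58, SE; edgeR adjusted p = 0.0296). Both samples gave nearly the same level in BRAF-positive cells. spry4, a Sprouty inhibitor of the pathway, had 135 and 163 CPM in BRAF-positive cells, against 24.8 and 15.8 CPM in BRAF-0 cells (3.23 ± 0.55, SE; edgeR adjusted p = 0.0298). phlda1 had 9.13 and 19.3 CPM in BRAF-positive cells and 0.715 and 0.451 CPM in BRAF-0 cells. mycb, one of the zebrafish myc genes, had 308 and 414 CPM in BRAF-positive cells, and 73.1 and 122 CPM in BRAF-0 cells. The other 3 called were etv5a, dusp4 and dusp6, the phosphatase that acts on ERK. dusp6 had 110 and 132 CPM in BRAF-positive cells, against 32.9 and 26.8 CPM in BRAF-0 cells. dusp6 and dusp4 are named after their values were seen.

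Few calls were made among members of the pathway itself. Of 29 RAS, RAF, MEK and ERK genes and their adaptors, 0 rose and 0 fell without the sample in the model, and with it 1 rose, the RAS-related gene rras2. A list of this size holds few calls at the shares over all genes (2.54% higher and 6.52% lower), and no 4-fold change was recovered in simulated data without the sample in the model. The fish's own braf gene was scarce, with 0.435 and 1.06 CPM in BRAF-positive cells (10 and 9 UMIs) and 1.67 and 2.48 CPM in BRAF-0 cells (7 and 11 UMIs), and did not pass the test (-1.09 ± 0.83, SE; edgeR adjusted p = 0.478). The median log2 fold change of the list was -0.15. By unscaled CPM its medians were -0.68 (sample E) and -0.32 (sample F), and after TMM scaling -0.44 and 0.26, so its direction in sample F depends on the scaling. Of 18 ETS factors, 2 rose and 4 fell. Those that rose were etv5a and etv5b. Those that fell were spi1a and spi1b, which direct the myeloid lineage, and fli1a and fli1b, which serve vessels and blood. spi1b had 5.43 and 11.9 CPM in BRAF-positive cells, against 349 and 367 CPM in BRAF-0 cells.

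**Figure D3:**
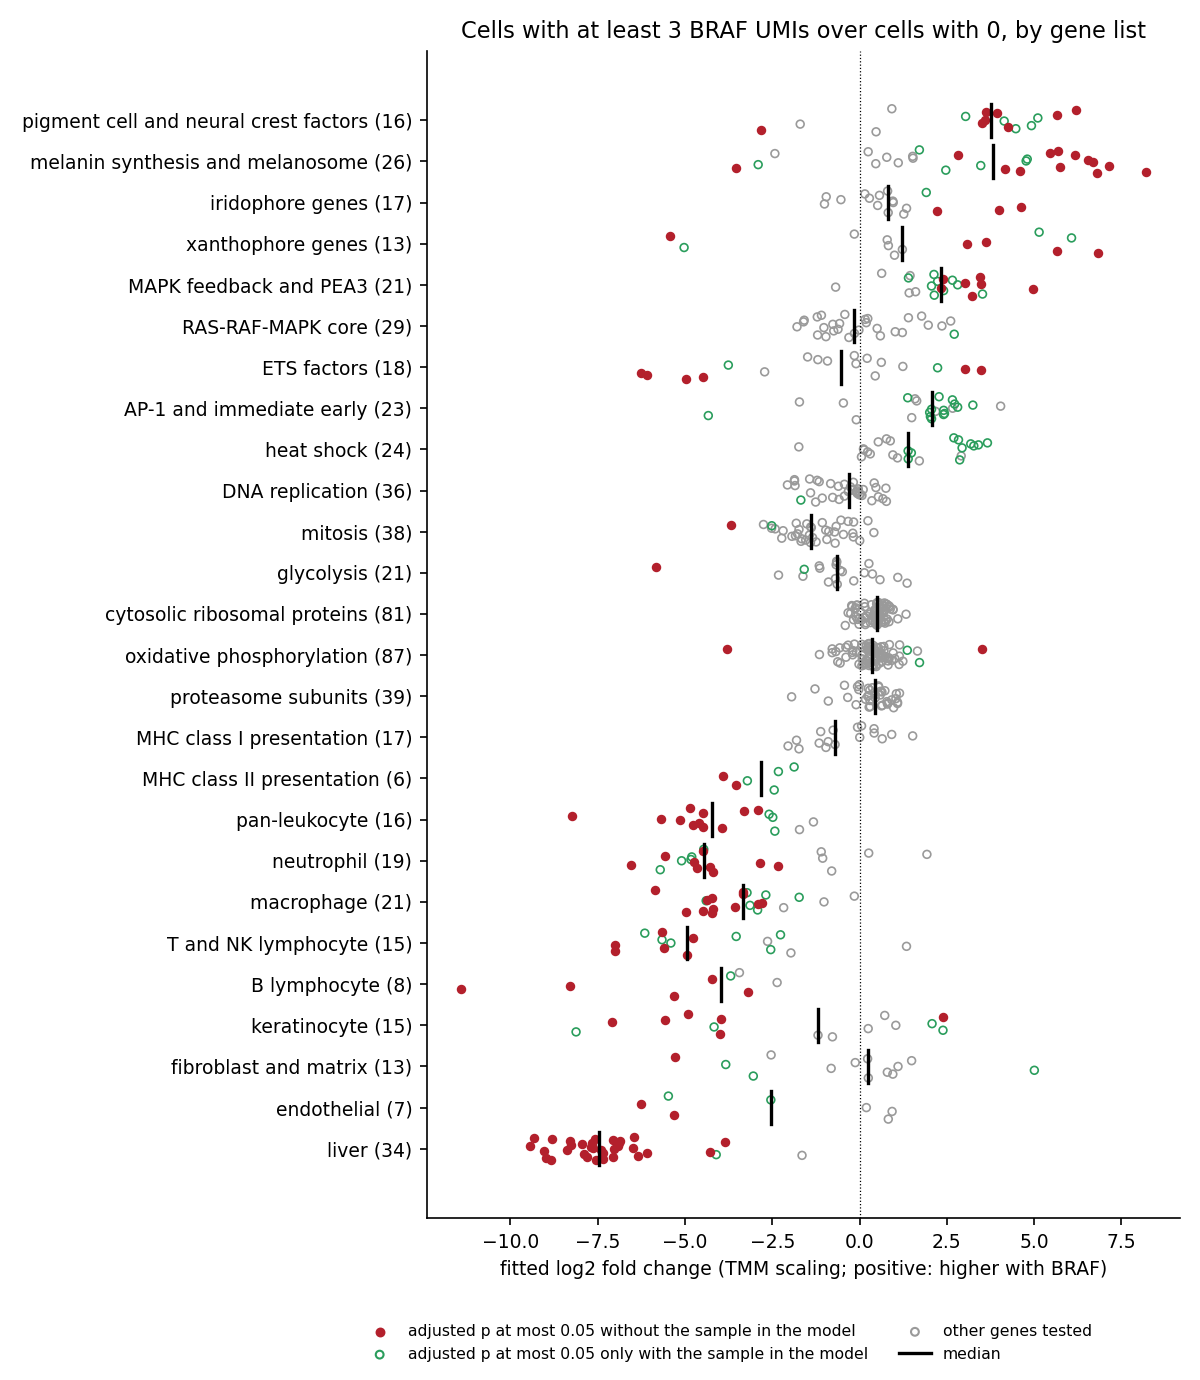
Fitted log2 fold change of each tested gene, BRAF-positive over BRAF-0 cells, for 26 gene lists (number of genes tested in brackets). Filled red points passed without the sample in the model, open green points only with it, and black bars are medians, which reach 3.82 for melanosome genes and -7.47 for liver genes.

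The level of the feedback genes in BRAF-0 cells was low where leukocyte genes were present. In sample E, spry4 had 9.47 CPM in the 184 BRAF-0 cells with at least 5 pan-leukocyte UMIs and 115 CPM in the other 39 BRAF-0 cells, beside 135 CPM in BRAF-positive cells. For dusp6 the values were 20.3 and 107 CPM, beside 110 CPM, and for mycb 30.1 and 328 CPM, beside 308 CPM. In sample F, spry4 had 7.80 CPM in 217 cells with leukocyte genes and 49.7 CPM in the other 62, beside 163 CPM in BRAF-positive cells. mycb had 69.1 and 348 CPM in these cells, beside 414 CPM. The whole feedback list summed to 4029 CPM in the 39 cells of sample E, above the 2511 CPM of BRAF-positive cells, and to 3509 CPM in the 62 cells of sample F, below the 6633 CPM of BRAF-positive cells. Their spry4 UMIs came from 23 and 13 cells.

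Pigment lists differed in how far these cells lay from BRAF-positive cells. Melanosome genes summed to 10838 and 8110 CPM in BRAF-positive cells of samples E and F, against 4302 and 843 CPM in these cells. Iridophore genes summed to 888 and 1349 CPM in BRAF-positive cells, against 952 and 567 CPM, and pigment and neural crest factors to 1054 and 2118 CPM, against 556 and 253 CPM. tyrp1a had 1.65 and 1.18 CPM in the BRAF-0 cells with under 5 pan-leukocyte UMIs, with 1 cell each holding a UMI. BRAF-positive cells had the 53.6 and 213 CPM given above. mitfa had 11.5 and 9.47 CPM in the same BRAF-0 cells, in 4 cells of either sample. sox10 had 102 and 29.6 CPM there, in 18 and 11 cells, close to BRAF-positive cells in sample E. cdh1, the adhesion protein E-cadherin of epithelia and melanocytes, had 165 and 170 CPM in BRAF-positive cells. In BRAF-0 cells with under 5 pan-leukocyte UMIs it had 132 and 218 CPM. Over all BRAF-0 cells cdh1 had 35.7 and 51.4 CPM, and was called higher in BRAF-positive cells (2.38 ± 0.42, SE; edgeR adjusted p = 0.0316). Of the 39 cells of sample E, 10 had an EGFP UMI, and of the 62 of sample F, 1 had one.

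When BRAF-positive cells were set against these 39 and 62 cells alone, 4 genes were higher and 153 lower, of 10564 tested. Those called lower included the liver genes tfa, fgb, ambp and serpina1l, and epcam, dspa and krt94 of the keratinocyte list. The 4 called higher were tyrp1a, slc2a15b, the zinc transporter gene slc30a8 and nqo1, a quinone reductase named after its values were seen. mitfa kept a log2 fold change of 4.43 but missed the threshold (edgeR adjusted p = 0.0645), and spry4 had 1.03 and mycb 0.43. Against the BRAF-0 cells with leukocyte genes alone, 669 genes were higher and 937 lower.

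AP-1 and heat shock genes were higher in BRAF-positive cells of both samples but at very unlike levels in the 2 samples. Of 23 AP-1 and immediate early genes, 0 were called without the sample in the model, and 13 rose and 1 fell with it. Over all genes, 2.54% rose and 6.52% fell without it, and 6.84% and 11.4% with it. The summed level of that list was 2581 and 14214 CPM in BRAF-positive cells of samples E and F, against 1341 and 3166 CPM in BRAF-0 cells. Of 24 heat shock genes, 0 were called without the sample and 11 rose and 0 fell with it. hsp90aa1.2, an inducible chaperone, had 2374 and 17633 CPM in BRAF-positive cells, against 435 and 3372 CPM in BRAF-0 cells. Sample F was higher than sample E in both groups, and by unscaled CPM its BRAF-0 cells were above the BRAF-positive cells of sample E. After TMM scaling that order turned, and both BRAF-positive sums lay above both BRAF-0 sums. With the sample in the model the log2 fold change was 2.83 ± 0.35 (SE; edgeR adjusted p = 0.00178), and without it the adjusted p was 0.217. The BRAF-0 cells without leukocyte genes were closer or higher. In sample E they had 6609 CPM of AP-1 genes, above BRAF-positive cells, and 16579 CPM of heat shock genes, beside 17234 CPM in BRAF-positive cells. In sample F they had 8439 and 29467 CPM of these lists, below the 14214 and 71492 CPM of BRAF-positive cells. Enzymatic dissociation is known to raise genes of both lists, and its part in this difference was not tested.

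Growth and housekeeping lists held few calls, beside 2.54% called higher and 6.52% lower over all genes. The smaller of these lists hold few calls at such shares, and 0% of simulated 4-fold changes were recovered without the sample in the model. Of 36 DNA replication genes, 0 were called (1 fell with the sample in the model), and pcna had 93.5 and 84.9 CPM in BRAF-positive cells and 101 and 151 CPM in BRAF-0 cells. Of 38 mitosis genes, 0 rose and 1 fell, the cyclin gene ccnb3 (2 fell with the sample in the model). Mitosis genes summed to 503 and 201 CPM in BRAF-positive cells, against 507 and 1705 CPM in BRAF-0 cells, and in sample F germ cell genes were also higher in BRAF-0 cells, at 17.0 CPM in BRAF-positive and 926 CPM in BRAF-0 cells. In the BRAF-0 cells of sample F with under 5 pan-leukocyte UMIs, mitosis genes summed to 5473 CPM and germ cell genes to 3956 CPM. Of 81 ribosomal protein genes and 39 proteasome genes 0 were called. Of 87 genes of oxidative phosphorylation, cox4i2 rose and cox5b2 fell (3 rose and 1 fell with the sample in the model). The medians of the ribosomal list (-0.06 unscaled and 0.53 scaled in sample F), of the oxidative list (-0.07 unscaled and 0.17 scaled in sample E) and of the proteasome list (-0.21 unscaled and 0.38 scaled in sample F) turn with the scaling. Of 21 glycolysis genes, 0 rose and 1 fell (2 fell with the sample in the model), at a median log2 fold change of -0.66. The gene that fell, gapdh, had 0.304 and 3.43 CPM in BRAF-positive cells, against 94.6 and 178 CPM in BRAF-0 cells. It was a small part of the list, which summed to 4155 and 2485 CPM in BRAF-positive cells and 6327 and 6992 CPM in BRAF-0 cells.

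Immune genes were lower in BRAF-positive cells. Over all genes, 6.52% were called lower (11.4% with the sample in the model). Of 16 pan-leukocyte genes, 0 rose and 11 fell, with a median log2 fold change of -4.22. ptprc, the leukocyte antigen CD45, had 3.22 and 9.10 CPM in BRAF-positive cells, against 152 and 217 CPM in BRAF-0 cells. Of 19 neutrophil genes, 9 fell (14 with the sample in the model), among them mpx, the myeloperoxidase of neutrophil granules, with 2.04 and 2.48 CPM in BRAF-positive cells and 364 and 167 CPM in BRAF-0 cells. Of 21 macrophage genes, 12 fell (18 with the sample in the model), among them grn1, a granulin, with 79.9 and 152 CPM in BRAF-positive cells and 2535 and 3948 CPM in BRAF-0 cells. Of 15 T and NK cell genes, 6 fell (12 with the sample in the model), and of 8 B cell genes, 5. Of 6 class II antigen presentation genes, 2 fell (6 with the sample in the model). Of 17 class I genes 0 were called, and a list of this size holds few calls at the share over all genes. The median log2 fold change of the class I list was -0.70. b2m, the light chain of class I, had 1038 and 2549 CPM in BRAF-positive cells, against 1997 and 2591 CPM in BRAF-0 cells.

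Genes of some other tissues set BRAF-0 cells apart as well. Of 40 liver genes listed, 34 were tested and 32 fell. The median log2 fold change was -7.47, or -7.06 with genes listed at 0 in BRAF-positive cells taken at their bound (3 UMIs over both sums). The list summed to 64.2 and 55.3 CPM in BRAF-positive cells, against 4104 and 7103 CPM in BRAF-0 cells. Members near 0 in BRAF-positive cells entered the test through BRAF-0 cells, so they could only be called lower. tfa, which encodes transferrin, had 2.13 and 2.01 CPM in BRAF-positive cells, against 356 and 563 CPM in BRAF-0 cells. These levels rest on few cells, since 1 cell held 1010 and another 473 of the tfa UMIs of BRAF-0 cells in sample E, and 1 cell held 1044 in sample F. The complement gene c3a.2 had 0 UMIs in BRAF-positive cells of either sample, and was at least 354-fold lower than in BRAF-0 cells, where it had 22.2 and 44.7 CPM. Of 15 keratinocyte genes, 5 fell and cdh1 rose (7 and 3 with the sample in the model). epcam had 0.782 and 0.827 CPM in BRAF-positive cells, against 19.1 and 317 CPM in BRAF-0 cells. Its level in BRAF-0 cells rests on few cells too. In sample E, 1 cell held 33 and another 24 of the 80 UMIs. In sample F, 1 cell held 249 of the 1405 UMIs, and epcam was found in 3 BRAF-0 cells with at least 5 pan-leukocyte UMIs and 13 others. Of 7 endothelial genes, 2 fell (4 with the sample in the model). Of 13 fibroblast and matrix genes, col1a2 fell (with the sample in the model 3 fell and 1 rose), near the 6.52% called lower over all genes. The median log2 fold change of that list was 0.23, with 7 genes above 0, so it did not set the groups apart. Erythrocyte genes were touched by the hemoglobin limit and were not read further.

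Among the largest rises with at least 200 UMIs in all was hoxc13b, a HOX gene, with 5.96 and 21.3 CPM in BRAF-positive cells and 0 UMIs in BRAF-0 cells of either sample, at least 29.0-fold higher. CSDC2 (1 of many) and tmem119b also had 0 UMIs in BRAF-0 cells, and were at least 22.4-fold and 20.2-fold higher. slc30a8 had 23.0 and 56.9 CPM in BRAF-positive cells, and 1 UMI in all BRAF-0 cells, in sample F. pcdh10a, a protocadherin, had 15.3 and 93.9 CPM in BRAF-positive cells, against 0.238 and 0.677 CPM in BRAF-0 cells. mtbl differed most between samples, at 83.2 and 869 CPM in BRAF-positive cells, against 1.91 and 9.47 CPM in BRAF-0 cells. sox2, a factor of neural progenitors and glia, was 1 of 10 glial and neuronal genes and rose, with 13.8 and 26.5 CPM in BRAF-positive cells, against 0.953 and 2.71 CPM in BRAF-0 cells. Among the largest falls were igic1s1 and igl3c3, which encode immunoglobulin light chains, at 0.0435 and 0.236 CPM in BRAF-positive cells and 734 and 14.7 CPM in BRAF-0 cells for igic1s1. igl3c3 had 0 UMIs in BRAF-positive cells and was at least 295-fold lower.

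Levels were then followed over the number of BRAF UMIs in the cell, as a description without a test, since depth also rises with that number. Melanosome genes summed to 8131 CPM in cells of sample E with 3 to 5 BRAF UMIs, 8410 CPM with 6 to 10, 9638 CPM with 11 to 20 and 11836 CPM with over 20. In sample F they summed to 4844, 5630, 6264 and 9033 CPM. They thus increased with the BRAF count within the BRAF-positive cells of both samples. ERK feedback genes did not. They summed to 3250, 2889, 2540 and 2384 CPM in sample E, and to 9275, 9336, 6696 and 6088 CPM in sample F, so the last bin was the lowest in both samples. Median depth over the same bins was 11802, 12215, 16640 and 26402 UMIs in sample E, and 7695, 9928, 12968 and 27175 UMIs in sample F.

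Cells just below the limit fell into different company by their count. Cells with 1 BRAF UMI (38 and 20) had 2441 and 2425 CPM of pan-leukocyte genes in samples E and F, near the level of BRAF-0 cells. Cells with 2 BRAF UMIs (30 and 21) had 133 and 677 CPM. ERK feedback genes summed to 1202 and 2609 CPM with 1 BRAF UMI, and to 2488 and 8840 CPM with 2.

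**Figure D4:**
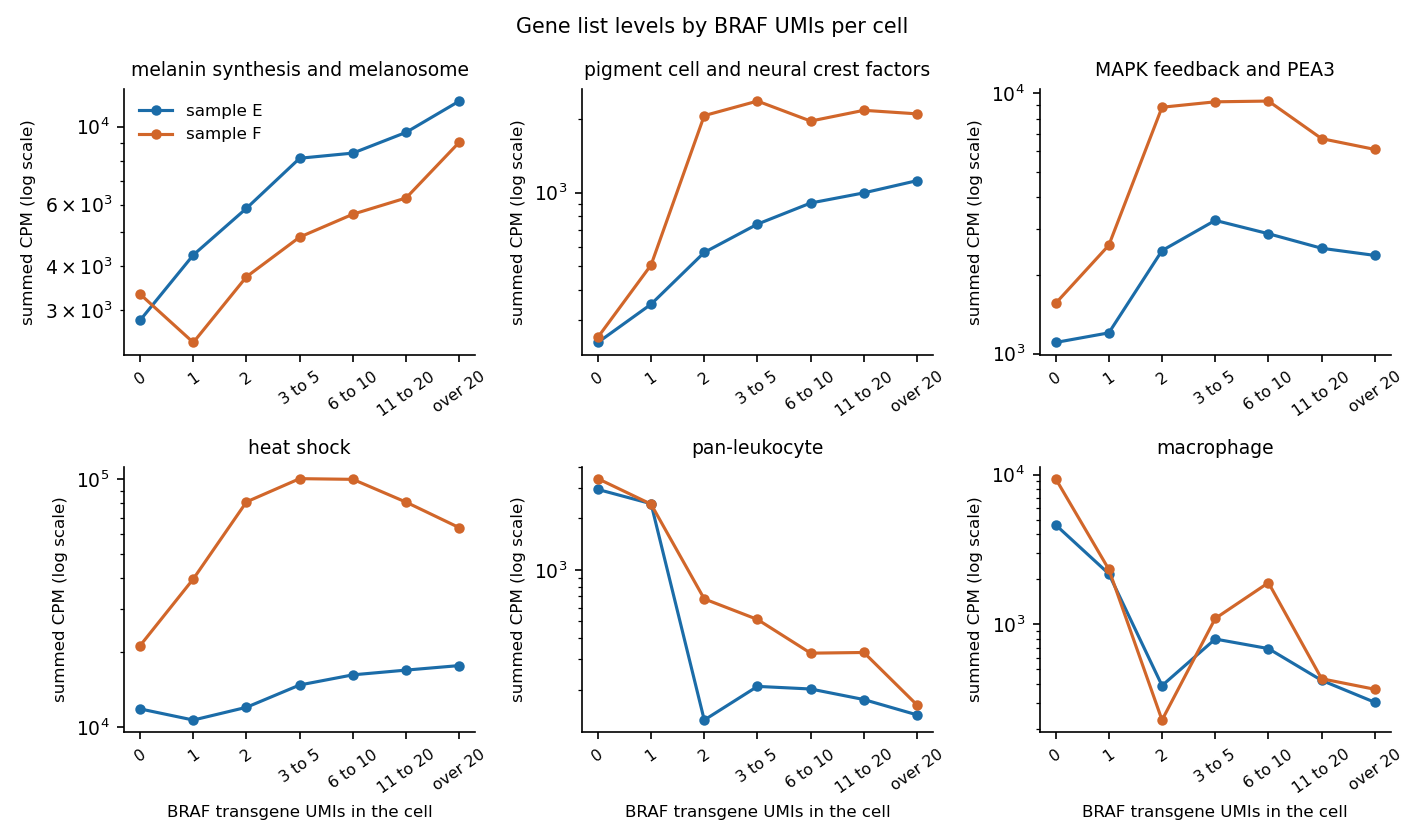
Summed CPM (log scale) of 6 gene lists by BRAF transgene UMIs in the cell, samples E and F. The pan-leukocyte level drops between 1 and 2 BRAF UMIs, at 2441 and 133 CPM in sample E, and melanosome genes increase through the last bin, to 11836 CPM (sample E) and 9033 CPM (sample F).

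Within BRAF-positive cells, those with the upper share of BRAF among their UMIs were compared with those with the lower share, split at the median of each sample, at 1116 and 1144 CPM of BRAF. The upper and lower groups held 495 cells each in sample E and 186 each in sample F. Median depth was 18152 and 17969.5 UMIs in upper-share cells of samples E and F, and 21920 and 14123.5 UMIs in lower-share cells. The BRAF share chose the groups and was not tested. Over 11209 genes, 0 were called higher and 0 lower by edgeR without the sample in the model, while 105 had an unadjusted p under 0.05, and DESeq2 called 0 higher and 14 lower (0.125%). With the sample in the model, edgeR called 7 higher (0.0624%) and 161 lower (1.44%).

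EGFP, mitfa and several melanosome genes were higher at the upper BRAF share in both samples, without passing the test. The BRAF, GFP and MITF transgenes were all under the mitfa promoter, so the part of its activity in these differences cannot be told apart. EGFP had 946 and 680 CPM in upper-share cells, against 452 and 456 CPM in lower-share cells, and the groups did not overlap, beside 6.27% of genes that did not overlap in this direction. With the sample in the model its log2 fold change was 0.77 ± 0.24 (SE; edgeR adjusted p = 0.328). mitfa had 324 and 130 CPM in upper-share cells and 144 and 107 CPM in lower-share cells. pmela, the melanosome fibril protein, had 904 and 1597 CPM in upper-share cells, against 468 and 959 CPM in lower-share cells, and is named after its values were seen. Of 26 melanosome genes, 21 had a fold change above 0, and of 19 pigment and neural crest factors 11 did, beside 52.3% of all genes tested. Of these lists, the genes called with the sample in the model were lower at the upper share, slc7a11 (-3.06; edgeR adjusted p = 0.000392) and tfec (-1.79; edgeR adjusted p = 0.00783). The ERK target dusp6, named in the same way, had 117 and 130 CPM in upper-share cells and 103.8 and 135 CPM in lower-share cells, at a log2 fold change of 0.01 ± 0.21 (SE) with the sample in the model. Of 87 genes of oxidative phosphorylation, 85 had a fold change above 0, with a median of 0.25, though the median of the scaled ratios was 0.06 in sample E alone and 0.44 in sample F alone, and 1 was called with the sample in the model. That gene, cox8b, a subunit of cytochrome oxidase, had 51.1 and 86.8 CPM in upper-share cells, against 23.1 and 18.0 CPM in lower-share cells (1.598 ± 0.28, SE; edgeR adjusted p = 0.0131). Its level in sample F rests on few cells. There, 380 cox8b UMIs lay in 15 of the 26 cells without EGFP described below, with 115 of them in 1 cell. Among the 244 cells with EGFP there were 63. pah, which makes tyrosine from phenylalanine, had 109 and 218 CPM in upper-share cells, against 54.2 and 96.1 CPM in lower-share cells (edgeR adjusted p = 0.0398 with the sample in the model). The other 5 called were slc39a10, spock3, fstl1a, pvalb6 and si:ch73-111k22.3. In sample E, 1 upper-share cell held 100 of the 102 UMIs of si:ch73-111k22.3 and 59 of the 61 of pvalb6. For 3 of the 7 in sample E and 2 in sample F, 1 cell held over 50% of the UMIs of upper-share cells. All 7 are named after their values were seen.

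Leukocyte genes were higher in lower-share cells, partly through few cells. The BRAF share was taken over all UMIs of a cell, so UMIs of a leukocyte in the same droplet would lower it by construction. The part of this in the difference was not tested. With the sample in the model, 13 of 18 macrophage genes, 8 of 15 neutrophil genes, 6 of 15 pan-leukocyte genes and 4 of 4 class II genes were called lower at the upper BRAF share. Over all genes, 1.44% were called lower. grn1 had 6.62 and 47.9 CPM in upper-share cells, against 142 and 291 CPM in lower-share cells, without overlap, as for 7.38% of genes in this direction. In lower-share cells, 1 cell held 538 of the 1767 grn1 UMIs of sample E, and 1 held 402 of the 1052 of sample F. ptprc had 0.0946 and 2.07 CPM in upper-share cells and 5.87 and 18.5 CPM in lower-share cells, where 12 and 13 cells had a UMI. At least 5 pan-leukocyte UMIs were found in 84 and 38 upper-share cells of samples E and F, and in 140 and 28 lower-share cells. Such cells were thus more frequent at the lower share in sample E and at the upper share in sample F. After all such cells had been left out and the split made anew (an alternative chosen after seeing the data), 1 gene was higher and 19 lower. Of the 7 called higher with all cells kept, 5 could still be tested and 1 remained called. Of the 161, 72 could still be tested and 16 remained called.

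Those 16 include genes of secreted proteins. timp2b, an inhibitor of matrix proteases, had 49.3 and 22.3 CPM in upper-share cells and 194 and 84.8 CPM in lower-share cells (-2.01 ± 0.22, SE; edgeR adjusted p = 0.000553 with the sample in the model). mmp9, a matrix protease that neutrophils also make, had 9.93 and 3.51 CPM in upper-share cells, against 89.3 and 44.7 CPM in lower-share cells. cxcl8b.1 and CXCL8, chemokines that draw neutrophils, were among them, as was cxcr4b, a chemokine receptor. The levels given here are those with all cells kept, and without leukocyte-gene cells the log2 fold changes were -3.88 for timp2b (edgeR adjusted p = 4.65e-07), -3.92 for mmp9 (edgeR adjusted p = 4.36e-05) and -3.26 for cxcl8b.1 (edgeR adjusted p = 0.00202). cxcl8b.1 had 2.36 and 0.207 CPM in upper-share cells, against 36.8 and 12.2 CPM in lower-share cells. With all cells kept, the levels of mmp9 and cxcl8b.1 in sample F rest on few cells. There, all 17 mmp9 UMIs of upper-share cells lay in 1 cell, and 77 of the 162 of lower-share cells in 1 of 9. For cxcl8b.1 there was 1 UMI in upper-share cells, and 44 UMIs in 5 lower-share cells. These genes are named after their values were seen.

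**Figure D5:**
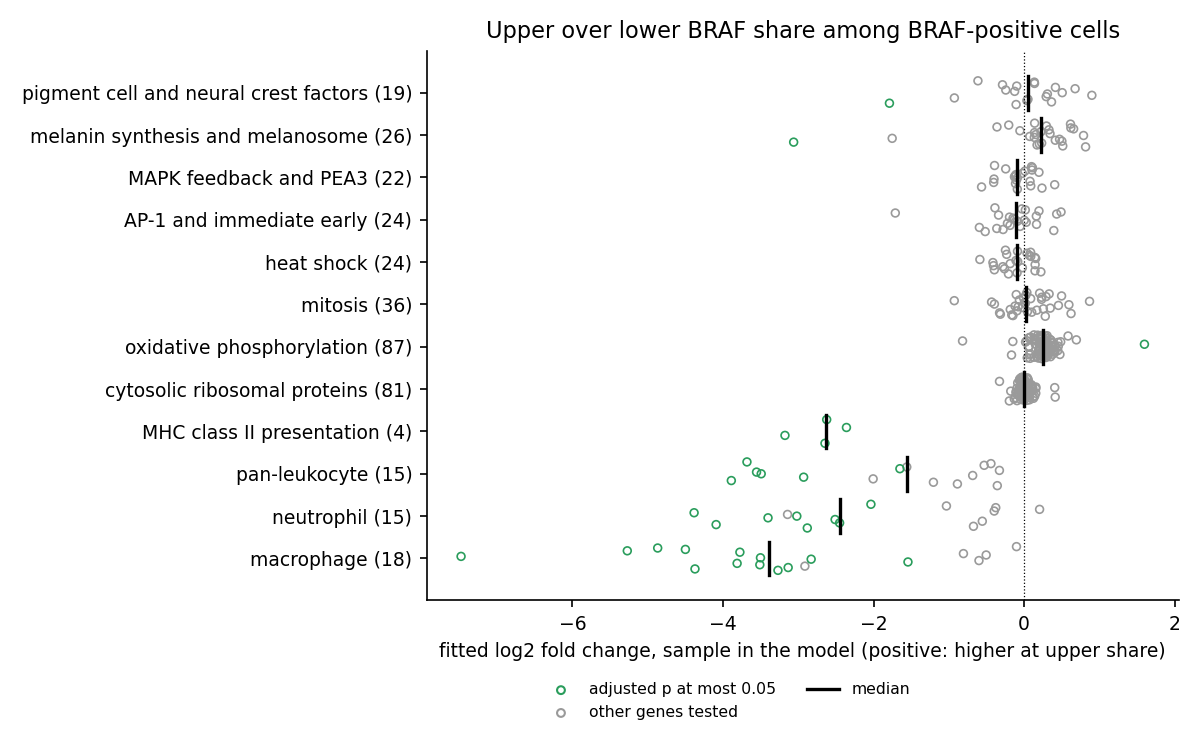
Fitted log2 fold change of each tested gene, upper over lower BRAF share among BRAF-positive cells, with the sample in the model, for 12 gene lists. Open green points passed the test and black bars are medians. The macrophage, neutrophil and pan-leukocyte lists lie to the left of 0.

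For 43 of the 161 genes called lower, 1 cell held over 50% of the UMIs of lower-share cells in sample E or F, 22 in sample E and 31 in sample F. ghrl, which encodes the gut hormone ghrelin, had 0 and 1.45 CPM in upper-share cells, against 0.0804 and 2780 CPM in lower-share cells, and was called with the sample in the model. Of its UMIs, 10060 lay in 1 cell of sample F, where they made 28.2% of all UMIs, beside 23 BRAF UMIs and 0 EGFP UMIs.

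BRAF-positive cells without EGFP were common in sample F only. Of cells with at least 10 BRAF UMIs, 26 of 270 had no EGFP UMI in sample F (9.63%, exact interval 6.39% to 13.8%), against 1 of 808 in sample E (0.124%, 0.00313% to 0.688%). Median depth was 12605.5 UMIs in the 26 cells and 21338.5 UMIs in the 244 with EGFP, with 25 and 28 BRAF UMIs. cox8b, marcksl1a, cox6a2 and kctd12.2 were picked from the leading genes by ratio, and genes not named here ranked above marcksl1a and cox6a2. The ranking covered genes with at least 200 UMIs found in at least 50% of either set of cells, a rule set after seeing the data. The other genes below were chosen by name. Since all come from 1 sample, values are given with no test and exact Poisson intervals for counting error. cox8b had 394 CPM (355 to 435) in cells without EGFP, against 9.80 CPM (7.53 to 12.5) in cells with it, and was found in 15 of the 26 cells. The kinase substrate gene marcksl1a had 1069 CPM (1005 to 1137) without EGFP and 186 CPM (175 to 196) with it. It was found in 23 of the 26 cells, but 1 cell held 386 of its 1032 UMIs there. On the other side, cox6a2 had 3.11 CPM (0.641 to 9.08) without EGFP and 310 CPM (296 to 324) with it, and kctd12.2 had 1.04 CPM (0.0262 to 5.77) and 170 CPM (160 to 181). Pigment genes were present, with mitfa at 274 CPM without EGFP and 90.7 CPM with it, and tyrp1b at 4636 and 2063 CPM. sox10 and pmela were likewise higher without EGFP, at 366 and 113 CPM and at 2227 and 1317 CPM. mitfa, tyrp1b, sox10 and pmela were found in 22, 24, 25 and 26 of the 26 cells. The cell with most UMIs of the gene held 63 of 264 for mitfa and 1152 of 4474 for tyrp1b. For sox10 it held 91 of 353, and for pmela 602 of 2149. The crest marker crestin went the other way, at 324 CPM (289 to 362) without EGFP and 956 CPM (933 to 981) with it. dusp6 had 41.4 CPM without EGFP and 137 CPM with it. ptprc had 2 UMIs in the 26 cells.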

How the data were processed

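Droplet 3′ libraries of samples E and F were used. The deposited files hold UMI counts per gene and barcode, which the authors made with Cell Ranger, per the labels version 3.1.0 on GRCz10, with the BRAF transgene and EGFP as added genes. No normalization had been applied. Counts were read with Python 3.11.15 (numpy 2.4.6, scipy 1.17.1, pandas 2.3.3), cells were filtered and grouped as given above, and UMIs were summed per sample and group. No doublet caller was run. Depth was 33314558 UMIs over 1911 barcodes in sample E and 14364782 over 1085 in sample F, and 32268 genes are listed.

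Sums were tested with edgeR 4.0.16 in R 4.3.3 (filterByExpr, TMM, quasi-likelihood test, Benjamini-Hochberg threshold 0.05), without and with the sample as a block. Both groups of a comparison come from the same samples, which gives the pairing, and their differences between samples correlated at 0.30 over 12025 genes for BRAF-positive and BRAF-0 cells, and at 0.84 over 11213 genes for upper and lower BRAF share. DESeq2 1.42.0, other scaling, filters, limits and cell sets were alternatives. A permutation test over 2 against 2 sums cannot go below p = 0.333. In simulated data for the first comparison (12021 genes, 50 changed at each fold), 0% of 4-fold and 32% of 16-fold changes were recovered without the block, and 18% and 86% with it. For the second (11209 genes), 0% of 16-fold changes were recovered without the block and 90% with it, at 10 false of 162 calls.

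Genes named were EGFP, braf and mitfa, up to 12 called in each direction with the largest fold change and at least 200 UMIs, up to 4 per list and direction (2 in the second comparison) with the lowest p, and the member with most UMIs of lists without a call. A further gene and allele of the study are not reported here. Others are said to be named after their values were seen. The groups and gene lists were chosen with earlier results of these data known.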

Additional observations from a re-analysis of the deposited data

Results flagged for a closer look

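Between BRAF-positive and BRAF-0 cells, b2m had log2 ratios of opposite sign in the samples after TMM scaling, at -0.707 in sample E and 0.564 in sample F. The difference between the samples was not tested.

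Between upper and lower BRAF share, 11 named genes had opposite signs in samples E and F, and these differences were not tested either. Of the cell cycle genes, mad2l1, a spindle checkpoint gene, had 1.24 in sample E and -1.03 in sample F, and pcna, the replication clamp, had 0.355 and -1.02. ccng1, a cyclin gene, had 0.0985 and -0.379. These 3 were all higher at the upper share in sample E and lower in sample F. The same held for fosab, at 0.874 and -0.546, hsp90aa1.2, at 0.426 and -0.642, ets2, at 0.216 and -0.694, and cfap20, at 0.319 and -0.626. The opposite order was seen for icn, at -0.262 in sample E and 0.585 in sample F, for the enolases eno1a, at -0.314 and 0.363, and eno3, at -0.232 and 0.228, and for rpl37, at -0.144 and 0.334.

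Cells with 1 or 2 BRAF UMIs, which entered neither group, had an EGFP UMI in 47.1% of sample E and 43.9% of sample F, against 5.38% and 0.358% of BRAF-0 cells.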

How the results depend on the processing

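Between BRAF-positive and BRAF-0 cells, the numbers of genes called higher and lower were 822 and 1367 with the sample as a block, 875 and 1379 with DESeq2, and 1150 and 1894 without a filter on low counts. Thinning each cell to 5000 UMIs gave 196 higher, leaving out cells with germ cell or cilium genes 529 higher, and both this and the block, chosen after seeing the data, 904 higher and 1358 lower. Against BRAF-0 cells with at least 5 pan-leukocyte UMIs 669 were higher, and against the other BRAF-0 cells 4 higher and 153 lower. In that last setting 8 named genes turned, with log2 fold changes of 3.94 for spi1b, 3.63 for rac2, 0.67 for MFAP4 (1 of many), 0.78 for ctss2.2, 0.90 for ptpn6, 3.29 for slc7a11, 2.12 for grn1 and 3.44 for ptprc, and 42 kept their direction without passing. BRAF-0 cells had been chosen there for few leukocyte UMIs, and only 39 and 62 were left. Of all calls, 37.6% were higher with the block and 28.01% without it.

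Between upper and lower BRAF share, edgeR called 7 higher and 161 lower with the sample as a block, 1 and 19 with leukocyte-gene cells also left out, and 3 and 85 without a filter, and DESeq2 called 14 lower. The block made 4 named genes of the first comparison and 3 of the second pass, and ended no named call. Leaving out either sample leaves 1 sum per group, so these are values with no test: of 100 named log2 fold changes of the first comparison 2 turned without 1 of the samples (b2m and pcna), and 0 of the 88 called, while of 36 in the second, where 0 were called, 18 turned. Counts of calls were not computed. The depth of BRAF-0 cells limits genes near 0 there, such as tyrp1a.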
